A study of Caenorhabditis elegans with 6 samples.

Results

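The proteasome is the large protease complex that degrades ubiquitin-tagged proteins. Its core particle is a barrel of stacked rings, in which the alpha subunits form the outer rings and gate the entry, and the beta subunits form the inner rings, some of them carrying the proteolytic sites. The regulatory particle caps the barrel, with a base of ATPases that unfold and translocate substrates, scaffold subunits and ubiquitin receptors, and a lid that removes ubiquitin chains. In *Caenorhabditis elegans* these genes are expressed widely, germline included, and the transcription factor SKN-1A drives them when proteasome function is impaired.

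The subunit genes were taken by symbol, as every gene named *pas*, *pbs*, *rpt* or *rpn* followed by a number, which gave 33 of the 21507 genes in the deposited table. The core particle had 14 genes, 7 of the alpha ring (*pas-1* to *pas-7*) and 7 of the beta ring (*pbs-1* to *pbs-7*). The regulatory particle had 19 genes, 6 ATPases (*rpt-1* to *rpt-6*) and 13 non-ATPase subunits (*rpn*), of which 4 belong to the base and 9 to the lid. All 33 passed the filter of a mean of at least 10 normalized counts, which are reads per gene after each library was scaled by its own size factor. The rule itself reads gene symbols only.

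RNA came from whole bodies of untreated L4 hermaphrodites, larvae that are producing sperm before adulthood. The groups were 3 libraries of a glna knockout, whose labels do not say which of the glutaminase genes were deleted or by which allele, and 3 libraries of wild type, titled N2. The series addresses what the loss of glutaminase, which converts glutamine to glutamate, does to the worm and its sperm. Whether replicates came from separate cultures is not stated, so every p-value reflects the variation among these 6 libraries alone and this variation may be technical.

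Recovered reads were between 18443661 and 19861540 per library. The glutaminase genes were checked first. *glna-2* averaged 57.6 ± 17.6 normalized counts in the knockout and 458 ± 56.3 in wild type, and *glna-3* 125 ± 46.6 in the knockout and 689 ± 64.8 in wild type, both past limma's threshold. *glna-1* averaged 156 ± 29.7 in the knockout and 264 ± 7.88 in wild type (SD, n = 3 each), with a limma adjusted p of 0.0762. Knockout replicate 1 stood apart, with 3.58% of its reads on ribosomal RNA genes (Wilson 95% interval 3.57% to 3.58%, counting error only), against 0.331% to 0.763% in the other 5 libraries. Markers of oocytes, germline, sperm, intestine, muscle, epidermis and neurons were all detected, with 0 genes of these lists at a count of 0 in any library.

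The subunit genes were abundant. Of the 33, 32 lay at or above the 87.7th percentile of mean level among the 15169 genes tested, and the exception was *rpn-6.2*, at the 70.5th percentile. Levels of different genes were compared per kilobase of the deposited gene length. For *pbs-4* that length is 1025 bases and the annotated exons cover 801, and for *rpn-7* the values are 1487 and 1907. The order of levels was not recomputed with annotated lengths, and the places of such genes may depend on the length used. In the knockout the core genes lay between 1747 (*pbs-4*) and 4024 (*pas-6*) normalized counts per kilobase, and in wild type between 2563 (*pbs-4*) and 4116 (*pbs-1*). The highest core gene was thus 2.30 times the lowest in the knockout and 1.61 times the lowest in wild type.

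Regulatory genes lay lower on this scale, with a median of 2204 normalized counts per kilobase in the knockout and 2252 in wild type, against core medians of 2793 in the knockout and 3208 in wild type. Without *rpn-6.2* the 18 others ran from 1778 (*rpn-6.1*) to 3150 (*rpn-7*) in the knockout and from 1667 (*rpn-6.1*) to 3234 (*rpt-2*) in wild type. The order was continuous: of 32 neighbouring pairs in the wild-type order, 23 had overlapping ranges over the 3 libraries. *pas-3* and *pas-1* were the highest and lowest alpha genes in wild type, at 4051 ± 37.3 and 2801 ± 115 normalized counts per kilobase (SD, n = 3). *rpt-2* and *rpt-6* held the same places among the ATPases, at 3234 ± 18.0 and 2464 ± 31.8.

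**Figure D1:**
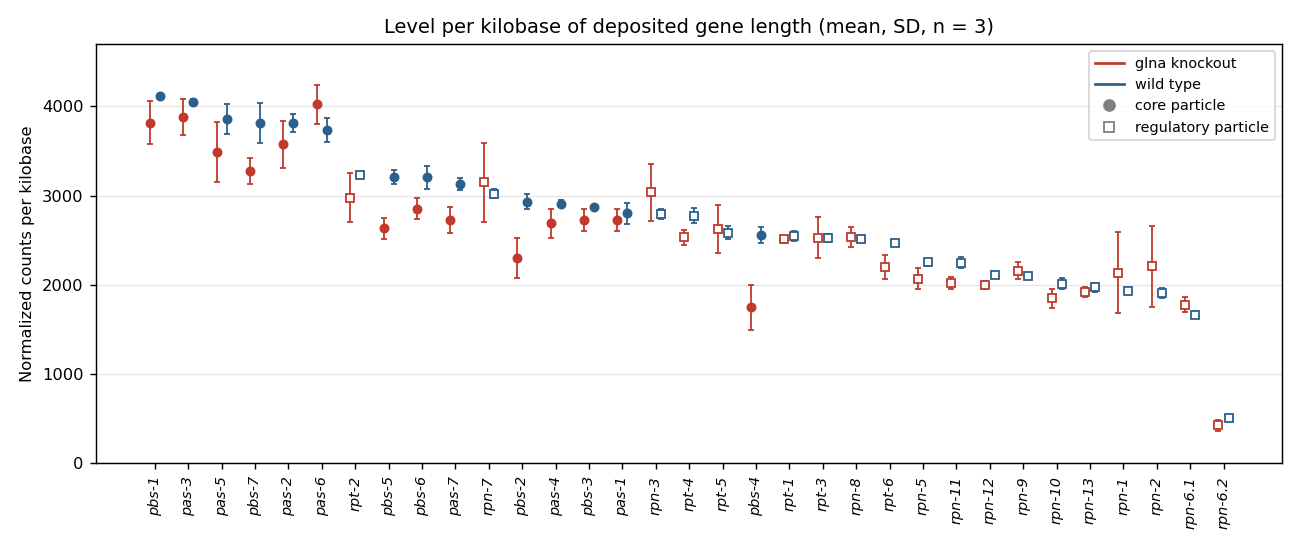
Normalized counts per kilobase of deposited gene length for the 33 subunit genes, ordered by the wild-type level; points are means and bars SD over 3 libraries, the knockout left of wild type for each gene, with filled circles for the core particle and open squares for the regulatory particle. Core genes fill most of the upper places, *rpn-6.2* lies apart at 427 in the knockout and 512 in wild type, and *pbs-4* shows the widest gap between the genotypes.

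Replicates were close for these genes. The median coefficient of variation over the 33 was 5.74% in the knockout and 2.43% in wild type, against 17.2% in the knockout and 11.5% in wild type over all tested genes. The 95% interval of the log2 fold change of knockout over wild type lay within 2-fold in either direction for 33 of 33 subunit genes, where 70.4% of all tested genes had such an interval. It lay within 1.5-fold for 30, the exceptions being *pbs-2*, *pbs-4* and *rpn-6.2*. Most of the 33 were of high level, and neither their spread nor their intervals were compared with those of genes of similar level.

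None of the 33 genes passed limma with Benjamini-Hochberg adjustment over all tested genes at 0.05, where 0.356% of all tested genes did, 0.145% lower and 0.211% higher in the knockout. At an unadjusted p under 0.05, 3 of the 33 were lower in the knockout (11.8% of all tested genes) and 0 higher (10.9%), and these 3 were *pbs-2*, *pbs-4* and *pbs-5*. edgeR on the recovered reads also called 0 of the 33, and only 9 of all 15169 tested genes. The authors' deposited table and DESeq2 on the recovered reads each called 1 lower, *pbs-4*. The authors' deposited table has 5.75% of all listed genes past an adjusted p of 0.05, and 2.92% lower in the knockout. DESeq2 called 1258 of the 15169 tested genes, 634 of them lower.

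**Figure D2:**
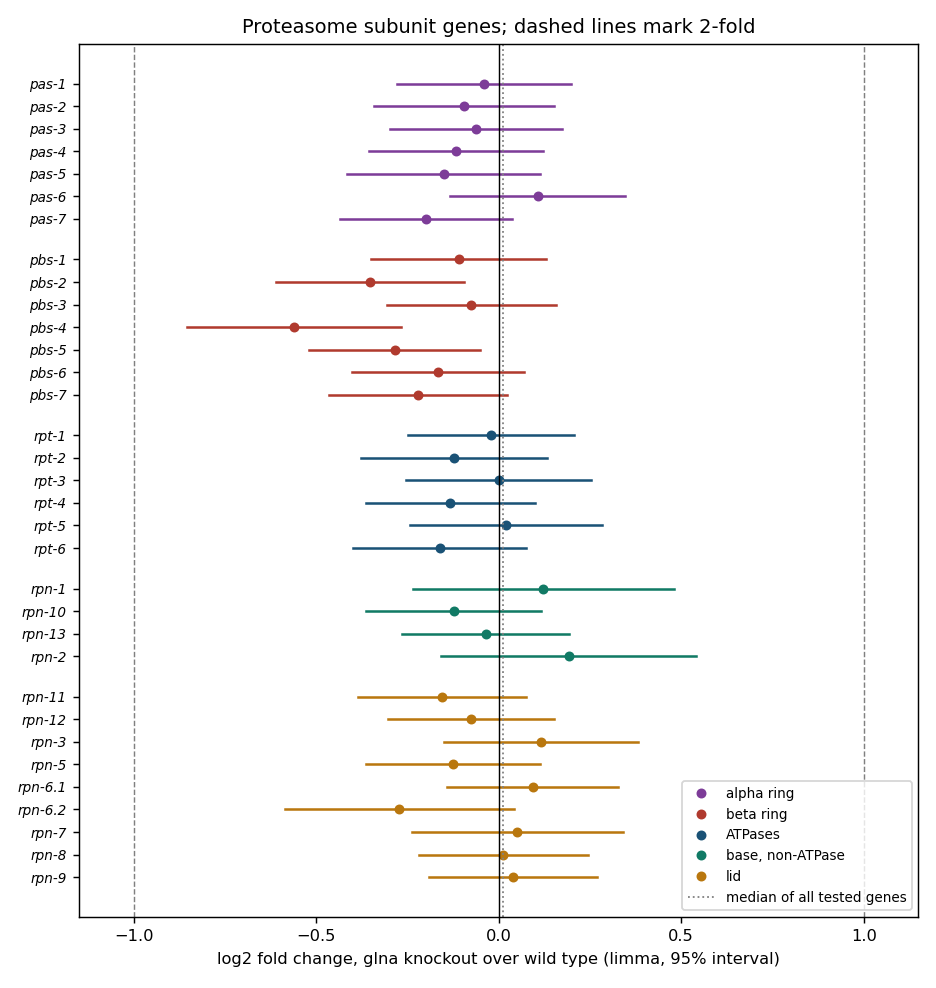
Log2 fold change of glna knockout over wild type for each subunit gene, with its limma 95% interval, grouped by ring and subcomplex; the dotted line is the median of all tested genes at 0.01 and the dashed lines mark 2-fold. All 7 beta ring genes lie left of 0, the intervals of *pbs-2*, *pbs-4* and *pbs-5* do not reach it, and the regulatory genes lie on both sides.

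In the core particle, 13 of 14 log2 fold changes were negative, with a median of -0.13, against 48.8% negative and a median of 0.01 over all tested genes. The beta ring showed this most, with a median of -0.22 over 7 genes. For each of the 7, all 3 knockout libraries lay below all 3 wild-type libraries, a pattern that 15.2% of tested genes had. The alpha ring had 2 such genes of 7, 1 gene with the opposite pattern, which 15.3% of tested genes had, and a median of -0.10. With quantile normalization or scaling by total reads alone the alpha count was 5, and without knockout replicate 1 it was 4; the beta ring then had 6, 6 and 7 such genes, and all tested genes 15.1%, 16.6% and 18.3%. Without knockout replicate 3 the core median was -0.074 and the alpha median -0.040, and without knockout replicate 1 the alpha median was -0.15; 13 of 14 core values were negative in each case.

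*pbs-4* (T20F5.2, chromosome I, 3908745 to 3909923, plus strand, WBcel235), a beta subunit without a proteolytic site, had the largest difference. Its values were 1592, 2082 and 1698 normalized counts in the knockout, against 2707, 2648 and 2526 in wild type. Every knockout library was lower, replicate 1 the lowest of them, and the knockout mean was 0.682 times the wild-type mean. The log2 fold change was -0.56 (SE 0.13, 95% interval -0.86 to -0.27, limma adjusted p = 0.0783), and the authors' deposited table gives -0.55 with an adjusted p of 0.0103. Over the 17 other settings the adjusted p was between 0.0095 and 0.267. It was 0.0471 in limma without knockout replicate 2, the only library whose removal brought it under 0.05 there.

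Annotated exons of *pbs-4* share 73 of 801 exonic bases with *mrrf-1* on the opposite strand, and the libraries are not stated to keep strand. The deposited *pbs-4* differs from the annotated gene, with a length of 1025 bases and an end at 3909923 rather than 3909701. The overlap was measured on the annotated gene only, so the share of bases within the deposited gene is not known. *mrrf-1* had 222 to 266 normalized counts in the knockout and 231 to 249 in wild type, so it was the minor gene of the pair and its groups overlapped.

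The proteolytic sites of the core are carried by PBS-1, PBS-2 and PBS-5, which correspond to the caspase-like, trypsin-like and chymotrypsin-like subunits. *pbs-2* (C47B2.4, chromosome I, 12967216 to 12968282, minus strand) had 2152, 2574 and 2240 normalized counts in the knockout and 2971, 2871 and 3034 in wild type. *pbs-5* (K05C4.1, chromosome I, 14718992 to 14720482, minus strand) had 3121, 3409 and 3264 in the knockout and 3887, 4079 and 3967 in wild type. In both genes the gap between the groups was wider than the range of its wild-type libraries. Their log2 fold changes were -0.35 (SE 0.11, limma adjusted p = 0.134) and -0.29 (SE 0.10, limma adjusted p = 0.158).

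*pbs-1* (K08D12.1), the other proteolytic subunit, differed less, at 3334, 3318 and 2971 normalized counts in the knockout and 3468, 3464 and 3439 in wild type. Its groups did not overlap either, but knockout replicates 1 and 2 were close to the wild-type values, and the log2 fold change was -0.11 (SE 0.10, limma adjusted p = 0.551), or -0.056 without knockout replicate 3. The remaining beta genes *pbs-3*, *pbs-6* and *pbs-7* had log2 fold changes of -0.08, -0.17 and -0.22.

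**Figure D3:**
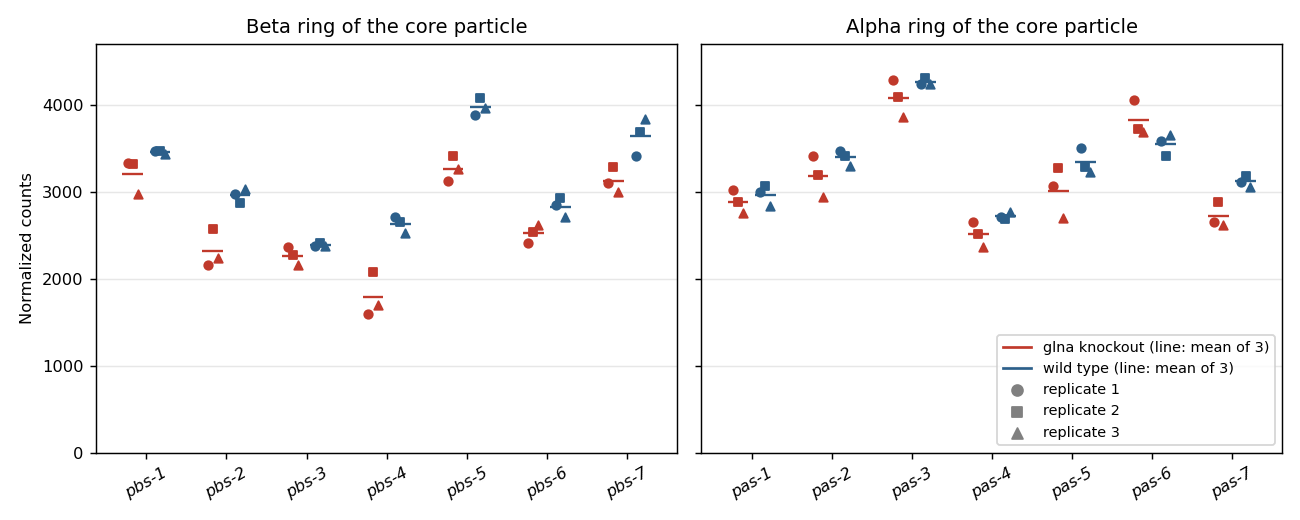
Normalized counts of the beta ring (left) and alpha ring (right) genes in each library, the knockout left of wild type for each gene; symbols mark the replicates and lines the means of 3. In the beta ring each knockout point lies below each wild-type point of the same gene, with the widest gap between means in *pbs-4*, while most alpha genes overlap and *pas-6* is higher in the knockout.

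Among alpha subunits, *pas-7* (ZK945.2) had the largest negative difference. It had 2654, 2882 and 2621 normalized counts in the knockout and 3118, 3185 and 3054 in wild type, with no overlap (log2 fold change -0.20, SE 0.10, limma adjusted p = 0.281). *pas-6* (CD4.6) was the 1 core gene with a positive difference, at 4060, 3718 and 3691 in the knockout and 3580, 3409 and 3658 in wild type. Its groups did not overlap, though knockout replicate 3 and wild type replicate 3 were close (log2 fold change 0.11, SE 0.10, limma adjusted p = 0.564). Without knockout replicate 1 the log2 fold change was 0.062. *pas-3* had 4289, 4092 and 3864 in the knockout and 4239, 4307 and 4239 in wild type, and *pas-1* 3016, 2887 and 2752 in the knockout and 3002, 3066 and 2831 in wild type. These extremes of level had overlapping groups and log2 fold changes of -0.06 and -0.04.

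In the regulatory particle 11 of 19 log2 fold changes were negative, with a median of -0.02. Without knockout replicate 1, 15 of 19 were negative, with a median of -0.064, and with sample weights 14 of 19, with a median of -0.052. Groups did not overlap for 6 genes that were lower in the knockout (15.2% of tested genes) and for 1 that was higher (15.3%). Without that replicate these counts were 12 and 1, where 18.3% of tested genes were lower without overlap and 18.5% higher. The smallest adjusted p of the 19 was 0.271 in limma.

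The 6 ATPase genes had log2 fold changes between -0.16 and 0.02. *rpt-6* (Y49E10.1) had 2931, 3295 and 3204 normalized counts in the knockout and 3528, 3463 and 3551 in wild type (log2 fold change -0.16, SE 0.10, limma adjusted p = 0.374). Its groups did not overlap. *rpt-5* (F56H1.4), at the other end, had 4402, 3702 and 3702 in the knockout and 3997, 3834 and 3780 in wild type. There replicate 1 of the knockout lay above all wild-type libraries and the other 2 below, and the log2 fold change of 0.02 (SE 0.11, limma adjusted p = 0.933) was -0.06 without that replicate. *rpt-2*, the most abundant ATPase gene per kilobase, had 4835, 4415 and 4031 in the knockout and 4831, 4809 and 4778 in wild type, with overlapping groups. Its log2 fold change of -0.12 became -0.19 when knockout replicate 1 was left out and -0.057 when replicate 3 was.

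The base scaffold genes depended on knockout replicate 1. *rpn-2* (C23G10.4) had 8472, 6279 and 5832 normalized counts in the knockout and 6065, 5730 and 5997 in wild type. *rpn-1* (T22D1.9), the other scaffold gene, had 9066, 6761 and 6089 in the knockout and 6697, 6665 and 6485 in wild type. Replicate 1 was above every other library for both genes. Replicate 2 of the knockout was also above the wild-type libraries, by little, while replicate 3 was below them for *rpn-1* and among them for *rpn-2*. The log2 fold change of *rpn-2* was 0.19 (SE 0.15, limma adjusted p = 0.475) and 0.03 without that replicate. The ubiquitin receptors of the base, *rpn-10* and *rpn-13*, had log2 fold changes of -0.12 and -0.04 with overlapping groups. In *C. elegans* RPN-10 is also known for a part in germline sex determination.

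In the lid, *rpn-11*, which encodes the subunit that removes ubiquitin chains, had 2204, 2319 and 2190 normalized counts in the knockout and 2429, 2558 and 2487 in wild type. Its groups did not overlap (log2 fold change -0.16, SE 0.10, limma adjusted p = 0.378). *rpn-7*, a structural lid subunit and the most abundant *rpn* gene per kilobase, had 5442, 4389 and 4221 in the knockout and 4422, 4575 and 4483 in wild type. Replicate 1 of the knockout was again the highest library and the other 2 the lowest, so the log2 fold change of 0.05 was -0.06 without it.

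The lid subunit RPN-6 has a pair of genes, *rpn-6.1* and *rpn-6.2*, which differed in level and in sign. *rpn-6.1* (F57B9.10), known for raising proteasome activity and stress resistance in worms when overexpressed, had 3132, 2915 and 2882 normalized counts in the knockout and 2709, 2820 and 2842 in wild type. *rpn-6.2* (F59B2.5) had 558, 690 and 745 in the knockout and 824, 778 and 791 in wild type. Knockout values were higher for *rpn-6.1* and lower for *rpn-6.2*, without overlap in either. Their log2 fold changes were 0.09 (SE 0.10, limma adjusted p = 0.613) and -0.27 (SE 0.14, limma adjusted p = 0.271), and the difference between them was not tested. Without knockout replicate 1 they were 0.055 and -0.15. Reads of near-identical stretches may be shared between such copies; their sequences were not compared here.

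The core-to-regulatory balance within a library does not depend on the size factors. Summed normalized counts of the core genes over those of the regulatory genes were 0.539, 0.621 and 0.595 in knockout replicates 1, 2 and 3, against 0.655, 0.651 and 0.648 in wild type. The ratio was lower in each knockout library, and varied more among them. The core sum averaged 40716 ± 1644 normalized counts in the knockout and 45234 ± 250 in wild type (SD, n = 3 each). The regulatory sum averaged 69833 ± 5916 in the knockout and 69451 ± 295 in wild type (SD, n = 3 each). By library the regulatory sum was 76523, 67687 and 65290 in knockout replicates 1, 2 and 3, against 69207, 69779 and 69366 in wild type. Knockout replicate 1 thus lay above every wild-type library, and knockout replicates 2 and 3 lay below every one. These sums describe the lists and were given no test.

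**Figure D4:**
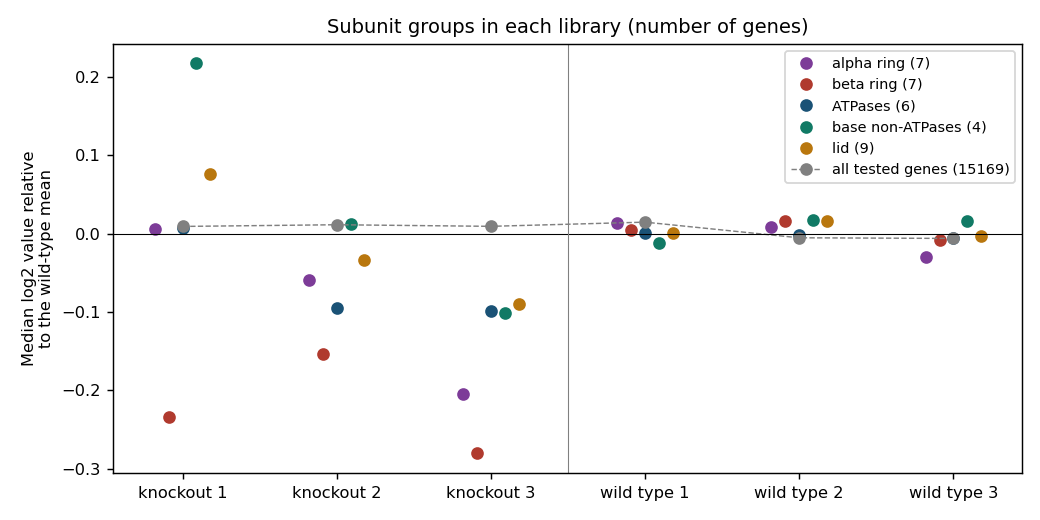
Median over each subunit group of the log2 normalized count relative to the wild-type mean of the same gene, per library, with the number of genes in brackets. The beta ring is the lowest group in each knockout library, at -0.23, -0.15 and -0.28, the base non-ATPases are at 0.22 in knockout replicate 1, and the 3 wild-type libraries lie close to 0.

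Core genes are short and regulatory genes longer, and fold changes ran with gene length across the whole table. Deposited lengths were 832 to 1239 bases in the core and 928 to 3419 in the regulatory particle. Over 14694 protein-coding genes, the log2 fold change had a Spearman rho of 0.27 with length; by library, the deviation from the wild-type mean had a rho of 0.34, 0.13 and 0.16 in knockout replicates 1, 2 and 3 and between -0.08 and 0.07 in wild type. Over the 33 subunit genes the rho with the log2 fold change was 0.43. These genes share libraries and the values are given as a description.

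Protein-coding genes up to 1239 bases, the length of the longest core gene and a limit set after the lengths were seen, had a median log2 fold change of -0.10, and 60.4% of them were negative. Longer ones had a median of 0.09, with 38.3% negative. The core had a median of -0.13. The 3 regulatory genes up to 1239 bases, *rpn-8*, *rpn-11* and *rpn-12*, had a median of -0.08, and the 16 longer ones had -0.01. The longest 3, *rpn-1*, *rpn-2* and *rpn-3*, had the highest log2 fold changes of the regulatory particle, at 0.12, 0.19 and 0.11. The part of length in the core-to-regulatory difference was not tested.

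**Figure D5:**
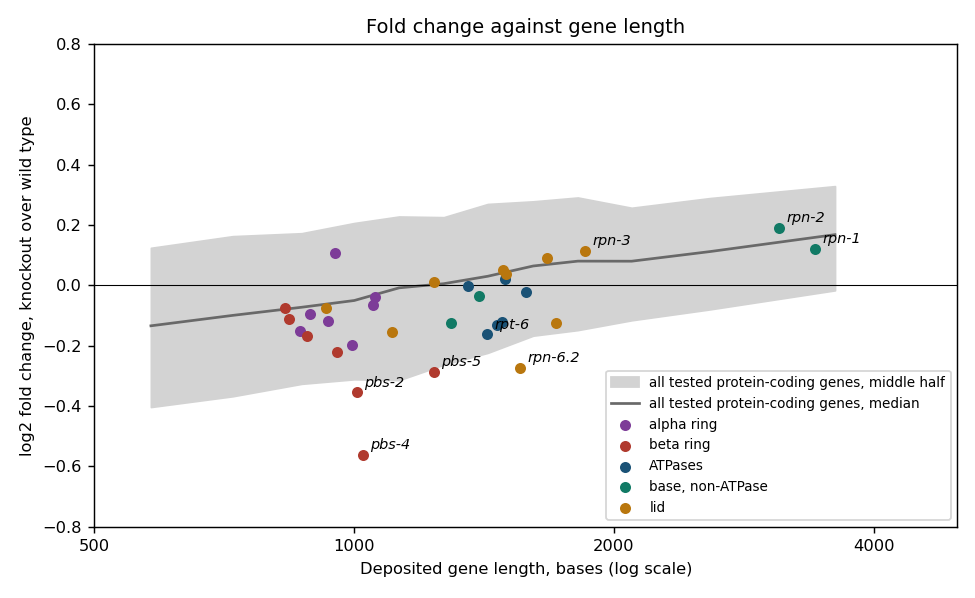
Log2 fold change of knockout over wild type against deposited gene length on a log scale; the grey line and band are the median and interquartile range of all tested protein-coding genes by length, and points are the subunit genes. The grey median climbs with length, most subunit genes lie near or below it, and *pbs-4*, at -0.56, lies farthest below.

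Summed levels of marker genes for some tissues also differed between the genotypes. The 28 oocyte and eggshell genes were each higher on average in the knockout, and their summed levels were 69607 to 138598 normalized counts in the knockout and 43189 to 65489 in wild type. Knockout replicate 1 stood apart in this list, with the other knockout sums at 69607 and 71344, near wild type replicate 1 at 65489. The 8 epidermal genes summed to 35448 to 45654 in the knockout and 49934 to 61444 in wild type. Of these 8, only *dpy-13* was lower without overlap (15.2% of tested genes). It had 5008, 7754 and 10022 normalized counts in the knockout and 13997, 21731 and 18951 in wild type. *elt-3* was higher without overlap (15.3%), and the others overlapped. These were also the 1 lower and 1 higher epidermal gene at an unadjusted p under 0.05 in limma (11.8% and 10.9% of tested genes). The 11 sperm genes summed to 23491 to 29534 in the knockout and 29343 to 39749 in wild type, with overlapping ranges. The median log2 fold changes were 0.88, -0.43 and -0.37 for these lists, and 0.16, 0.01, 0.06 and 0.12 for the germline, intestine, body wall muscle and neuron lists. Of these marker genes 0 passed limma over all genes; at an unadjusted p under 0.05, 20 of the 28 oocyte and eggshell genes were higher (10.9% of tested genes) and 4 of the 11 sperm genes lower (11.8%). The authors' deposited table has 11 of the 28 higher and 3 of the 11 lower past an adjusted p of 0.05. Of the 21507 genes it lists, 608 are higher and 628 lower past that threshold. It also has 1 germline gene higher, and 1 epidermal gene higher and 1 lower. For the intestine, body wall muscle and neuron lists it has 0. In whole-body RNA, fewer cells of a type and less RNA per cell cannot be told apart, and the part of these tissues in the subunit values was not tested.

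Genes that act with the proteasome gave a mixed picture. Of 14 listed genes for assembly, activation and association, 8 were found by symbol. Those not found were *psmg-1*, *psmg-2*, *psmg-3*, *psmg-4*, *pomp-1* and *psme-4*, and they were not searched for under other names. Of the 8 found, 0 passed limma over all genes, where 0.356% of tested genes did. At an unadjusted p under 0.05, 1 was lower (11.8% of tested genes). That gene was *dss-1*, a small lid component whose symbol falls outside the *rpn* series, with 1170, 1498 and 1272 normalized counts in the knockout and 1542, 1633 and 1605 in wild type (log2 fold change -0.29, SE 0.12, limma adjusted p = 0.218). Of 16 genes for ubiquitin supply and substrate delivery, 0 passed (1 lower at an unadjusted p under 0.05, against the same 11.8%), with a median of 0.08. The 1 was *ubxn-2*, a substrate-delivery gene, with 1075, 1087 and 1092 in the knockout and 1336, 1303 and 1218 in wild type (log2 fold change -0.24, limma adjusted p = 0.214).

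SKN-1A is a form of SKN-1 that is processed by the peptide N-glycanase PNG-1 and the protease DDI-1 before it activates proteasome genes. *png-1* had 537, 618 and 655 normalized counts in the knockout and 825, 885 and 793 in wild type, all knockout libraries being lower. The log2 fold change was -0.47 (SE 0.12, limma adjusted p = 0.0967), and the authors' deposited table gives an adjusted p of 0.0360. *skn-1* had 3956, 2794 and 2975 in the knockout and 2361, 2883 and 2458 in wild type, and *ddi-1* had 1044, 865 and 1056 in the knockout and 940, 799 and 978 in wild type. Both had overlapping groups (limma adjusted p = 0.257 and 0.601). Of the 7 genes in this list 0 passed limma over all genes (0.356% of tested genes). At an unadjusted p under 0.05, 1 was lower (11.8% of tested genes).

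Other multi-subunit complexes of the same worms were measured too. Of 8 listed genes of the COP9 signalosome, a relative of the lid, 6 were found by symbol, and *csn-7* and *csn-8* were not. The 6 were each above 0 on the log2 fold scale, at a median of 0.09. The highest was *csn-6*, at 0.18, with 874, 727 and 797 normalized counts in the knockout and 717, 672 and 718 in wild type (limma adjusted p = 0.384). By library, the median log2 value of the 6 relative to the wild-type mean was 0.23, 0.05 and 0.06 in knockout replicates 1, 2 and 3. It was 0.07, -0.05 and 0.004 in wild type. Of the 8 genes of the CCT chaperonin 6 were negative, with a median of -0.09 and the lowest value of -0.22 in *cct-3*, with 4872, 5360 and 4163 in the knockout and 5571, 5910 and 5218 in wild type (limma adjusted p = 0.333). None of these 14 COP9 and CCT genes with values passed limma over all genes, and 0 had an unadjusted p under 0.05 (22.6% of tested genes).

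By position, 10 of the 33 subunit genes were on chromosome I, 7 of them core genes, which is 30.3% of the set against 14.8% of the listed protein-coding genes. Chromosome III held 8, of which 7 were regulatory, and the X chromosome held 0, against 14.2% of the listed protein-coding genes. The closest pair, *pbs-7* and *pas-4*, was 30838 bases apart. The longest stretch of annotated exons shared with a neighbouring gene was 394 bases, between *rpn-7* and *nemt-1*, and *nemt-1* had 46 to 49 normalized counts in the knockout and 38 to 42 in wild type. The deposited *rpn-7* ends at 9318212 and the annotated gene at 9318632, so how much of this stretch lies in the deposited gene is not known.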

How the data were processed

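Whole-body RNA was extracted with TRIzol and made into NEBNext Ultra libraries, per the labels' protocols. Tools named in the submitters' processing notes, with no roles given, are DESeq2 1.20.0, featureCounts 1.5.0-p3, HISAT2 2.0.5, CASAVA 1.8 and StringTie 1.3.3b, and the build is WBcel235. The deposited table holds normalized counts (a signal: reads per gene scaled by a size factor for each library), the authors' log2 fold change, and the authors' p-values, per the file headers and values. The value of 1 read was found for every library, and 100% of values were whole multiples of it within 0.01 read.

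Symbols came from Ensembl 115 and RefSeq locus tags (21059 of 21507 IDs matched), and coordinates from the deposited table. limma 3.58.1 in R 4.3.3 was fitted to log2(normalized count + 1), which understates changes of low genes, for 15169 genes with a mean of at least 10, at an adjusted p (Benjamini-Hochberg) threshold of 0.05. edgeR 4.0.16 and DESeq2 1.42.0 on recovered reads were alternatives. The tests were tried on simulated data. The set of subunit genes, defined by symbol, and the lists and tests were chosen with earlier results of these data known.

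Genes were given in full where they had the smallest p, the largest positive or negative fold change, or the highest or lowest wild-type level per kilobase in their family, as were the RPN-6 pair and the proteolytic subunits; others were named after their values were seen. Promoter sequences were not analysed here. Same-numbered libraries were not treated as pairs.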

Additional observations from a re-analysis of the deposited data

How the results depend on the processing

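The number of changed genes over the whole table, 54 in limma, was sensitive to the processing: 19 with a pseudocount of 0.5, 19 with a mean of at least 50, 164 with no filter, 9 in edgeR, 21 in edgeR with median-of-ratios factors, 1258 in DESeq2, 1236 in the authors' deposited table, 320 with sample weights, 688 with a replicate block, 817 at a threshold of 0.1, and 0 to 247 when 1 library was left out. Of the 33 subunit genes, 0 were called in limma, and 1, the core gene *pbs-4*, in DESeq2, in the authors' deposited table and at a threshold of 0.1; leaving out 1 library gave 0 or 1. With the replicate block the count was 0. Whether the numbers pair the libraries was not settled: deviations of same-numbered libraries correlated at 0.20, -0.02 and 0.29. Knockout replicates 1 and 3 correlated best with the wild-type library of the same number, and knockout replicate 2 with wild type replicate 1, at 0.13. *rpn-7* and *rpt-5* turned to -0.024 and -0.020 with sample weights; leaving out 1 library gave -0.062 to 0.12 for *rpn-7* and -0.064 to 0.061 for *rpt-5*. Regulatory genes below wild type in every knockout library numbered 6, and 12 without knockout replicate 1. The shares of all tested genes were 15.2% and 18.3%. The cause of the higher count was not tested. The core median was -0.17 to -0.07 and the regulatory median -0.06 to 0.00 over the 17 fitted alternatives. Each subunit gene had at least 477 reads in every library, and 3 libraries per genotype limit the precision.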
